A study of Mus musculus with 20 samples.

Results

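Collagen genes were followed in RNA from reporter-labelled cells that were sorted from sciatic nerves of mice, uninjured or injured. Members were the rows of the 2 deposited count tables whose symbol has the form Col, a number, a and a number, which gave 44 of 55376 genes. They were grouped by the class of collagen they encode: 11 fibrillar, 8 of basement membranes (the type IV chains with types XV and XVIII), 9 FACIT (fibril-associated collagens with interrupted triple helices) and 16 others. In the Tomato experiment, Cdh5(PAC)-CreERT2, a tamoxifen-inducible Cre under an endothelial cadherin promoter, had switched on the R26-TomatoLSL reporter in adult mice that were Plxnd1 WT. Its 5 intact libraries came from uninjured nerves, and its injured ones from the lesion site, 5 taken 7 days after injury (7 dpi) and 4 taken 14 days after it (14 dpi). The Cherry experiment used cells carrying the Kdr-Cherry reporter, taken from the lesion at 7 dpi in control mice that were Plxnd1 WT (WT, 3 libraries) or in Chd5::CreER; Plxnd1fl/fl mice, in which Plexin-D1 is deleted in endothelial cells (KO, 3 libraries); the design text writes the driver as Chd5 here and Cdh5 for Tomato. Nerves were pooled, dissociated with enzymes that included a collagenase, and CD45-positive cells were left out of the sort. The design text places the lesion in the bridge, the tissue that forms at a gap in the nerve, while the sample labels call the injury a crush. The labels do not tie libraries to animals, so a p-value here measures the spread among libraries only, and that spread may be technical.

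Collagens are triple helices of 3 chains, secreted and then assembled outside the cell. Fibrillar collagens of types I, III and V form the fibres of connective tissue and are made above all by fibroblasts, in nerve the cells of the epineurium and endoneurium. Type IV collagen is a sheet-forming network of basement membranes: its common form holds the chains of Col4a1 and Col4a2, and a second form, found in a few specialised basement membranes, holds those of Col4a3, Col4a4 and Col4a5. Types XV and XVIII carry sugar chains and lie in or beside basement membranes, including those of blood vessels, and type VI forms beaded filaments around cells.

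Promoters of the members were read from RefSeq windows of GRCm38.p6 that run from 250 bases before to 50 bases after each annotated start. These windows were found for 35 of the 44 members (38 windows, since Col6a2, Col9a1 and Col18a1 have a pair each). Col4a1 and Col4a2 lie head to head on chromosome 8, Col4a1 at chr8:11198423-11312826 on the minus strand and Col4a2 at chr8:11312805-11449287 on the plus strand, so that the genes overlap by 22 bases. That stretch, chr8:11312805-11312826, is shown because both genes start inside it and the results below compare their RNAs; capitals mark the letters GGGCGG, known as a GC box, or their complement.
Col4a2 strand: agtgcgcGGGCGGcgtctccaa
Col4a1 strand: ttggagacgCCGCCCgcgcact
Neither window of the pair held the letters TATAAA, known as a TATA box, on either strand. The promoter of Col3a1, the main chain of type III collagen, is shown as a fibrillar contrast (chr1:45311288-45311537, plus strand, the 250 bases before the start), with TATAAA in capitals, its first base 117 bases before the start.
Col3a1: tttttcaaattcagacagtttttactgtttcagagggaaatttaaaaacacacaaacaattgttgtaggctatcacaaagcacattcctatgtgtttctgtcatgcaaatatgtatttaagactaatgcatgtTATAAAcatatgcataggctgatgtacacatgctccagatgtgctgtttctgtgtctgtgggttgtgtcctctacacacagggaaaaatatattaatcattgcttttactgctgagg
TATAAA, searched on both strands, was in 5 of the 38 collagen windows (2 of 8 fibrillar and 0 of 8 basement membrane windows), against 13.6% of 32851 promoter windows in all. GGGCGG, also on both strands, was in 23 of the 38, against 35.7% of all windows, and these matches are a description of letters, not of binding. Col4a3 and Col4a4 also lie next to each other, on chromosome 1, with 126 bases between them.

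Libraries held 19057029 to 34181449 counts. Levels are given in CPM (counts brought to a common library size, with TMM scaling within each experiment) and, where genes are compared with each other, in RPKM (CPM per kilobase of exon). Tests were edgeR's quasi-likelihood F test with batch in the model and Benjamini-Hochberg adjustment over all genes tested, and "rose" or "fell" below means adjusted p under 0.05. Endothelial markers (10 genes, among them Pecam1 and Cdh5) summed to 3319 to 7886 CPM in intact, 6632 to 9971 at 7 dpi, 5507 to 6877 at 14 dpi and 10250 to 11230 CPM in the Cherry libraries. Fibroblast markers (12 genes, among them Dcn and Lum, with no collagen in the list) summed to 7619 to 17540 CPM in intact, 1030 to 7270 at 7 dpi and 9340 to 17570 at 14 dpi, but to 145 to 162 CPM in WT and 109 to 451 CPM in KO. Most of the Tomato sums is Dcn, with a mean of 9687 of 11960 CPM in intact and 3560 of 4935 CPM at 7 dpi. The mean log2 level over the 12 genes overlapped between intact (5.93 to 6.36) and 7 dpi (4.36 to 6.42). No gene of either list was at 0 in a group. Although CD45-positive cells were gated out, macrophage markers (7 genes) summed to 1015 CPM in 14 dpi replicate 3 and 299.9 CPM in 7 dpi replicate 4, against 11.3 to 16.2 CPM in intact, and 3 of 7 rose at 14 dpi; their part in the results was not tested. Col1a1, Col3a1 and Col6a1, among others, were highest at 14 dpi in that replicate 3, without which 19 collagens rose and 2 fell relative to intact (5.51% and 4.5% of all genes). Mural cell markers (10 genes) summed to 1973 to 2787 CPM in intact, 855 to 2232 at 7 dpi and 1066 to 3607 at 14 dpi, and 6 of 10 fell at 7 dpi, their part likewise not tested. In such sorted bulk RNA, fewer cells of a type and less RNA per cell cannot be told apart. Y-linked genes were near 0 in 4 of 5 libraries at 7 dpi and 2 of 4 at 14 dpi but in no intact library, so the sex of the pooled mice differed between groups. With their mean as a covariate, added after seeing the data, 14 collagens rose and 5 fell at 7 dpi, when 9.02% of all genes were called higher and 10.6% lower. Col12a1 and Col13a1 were then no longer called (adjusted p = 0.0549 and 0.0959).

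After injury the collagens took a larger share of the RNA of the Tomato cells. They made up 0.438% to 0.632% of all counts in intact libraries, 1.46% to 2.35% at 7 dpi and 1.37% to 3.27% at 14 dpi. Intact did not overlap either injured group, and the injured groups overlapped each other. At 7 dpi 16 of the 43 members tested rose, where 15.7% of all genes did, and 6 fell, where 16.3% of all genes did. The median log2 fold change was 0.45 for the collagens and -0.10 for all genes. At 14 dpi 20 rose relative to intact (6.86% of all genes) and 3 fell (5.09% of all genes), with a median of 1.05 against 0.005 for all genes. From 7 to 14 dpi 11 rose (5.73% of all genes) and 3 fell (4.20% of all genes), with a median of 0.53 against 0.06. The libraries of the groups did not overlap for 20 members at 7 dpi (21.6% of all genes), 21 at 14 dpi (9.87%) and 10 between the injured times (10.8%). These comparisons share libraries with each other, so their counts are not independent. The 22, 23 and 14 members called had the same sign in batch 1133 and in batch 1292. They were called over both batches together, so the shared sign is not separate support for the calls. Col9a1, a FACIT chain of cartilage, was too low to test.

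Over the 3 comparisons the members divided by course. Rises at both times were called for 16: in 11 of them no difference between 7 and 14 dpi was called, Col3a1 and Col6a3 rose further, and Col4a1, Col4a2 and Col18a1 fell back. Relative to intact, Col4a5, Col6a1, Col6a2 and Col16a1 were called higher at 14 dpi and not at 7 dpi, and Col6a5 was called higher from 7 to 14 dpi alone. Col4a3, Col4a4 and Col17a1 fell at both times, and Col5a3, Col13a1 and Col23a1 at 7 dpi and not at 14 dpi. The 16 members called in no comparison were mostly low, with Col8a1 the 1 above 50 CPM.

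Per length, the collagens with the highest levels also changed. In intact cells Col3a1 led with 182 ± 50.5 RPKM (SD, n = 5), ahead of Col1a2 with 116 ± 13, Col1a1 with 108 ± 22.4 and Col4a1 with 97 ± 26.4 RPKM, and the last 3 were within their spread of each other. At 7 dpi Col1a1 (682 ± 367 RPKM; SD, n = 5), Col3a1 (573 ± 237) and Col4a1 (557 ± 204) were highest and within their spread. At 14 dpi Col3a1 led again with 1319 ± 466 RPKM (SD, n = 4), and Col4a1 was at 293 ± 78.1 RPKM. In the Cherry WT cells Col4a1 was highest, with 658 ± 53.5 RPKM (SD, n = 3), followed by Col4a2 with 394 ± 70.7 and Col18a1 with 308 ± 42.3, and Col3a1 was at 125 ± 61.6 RPKM.

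**Figure D1:**
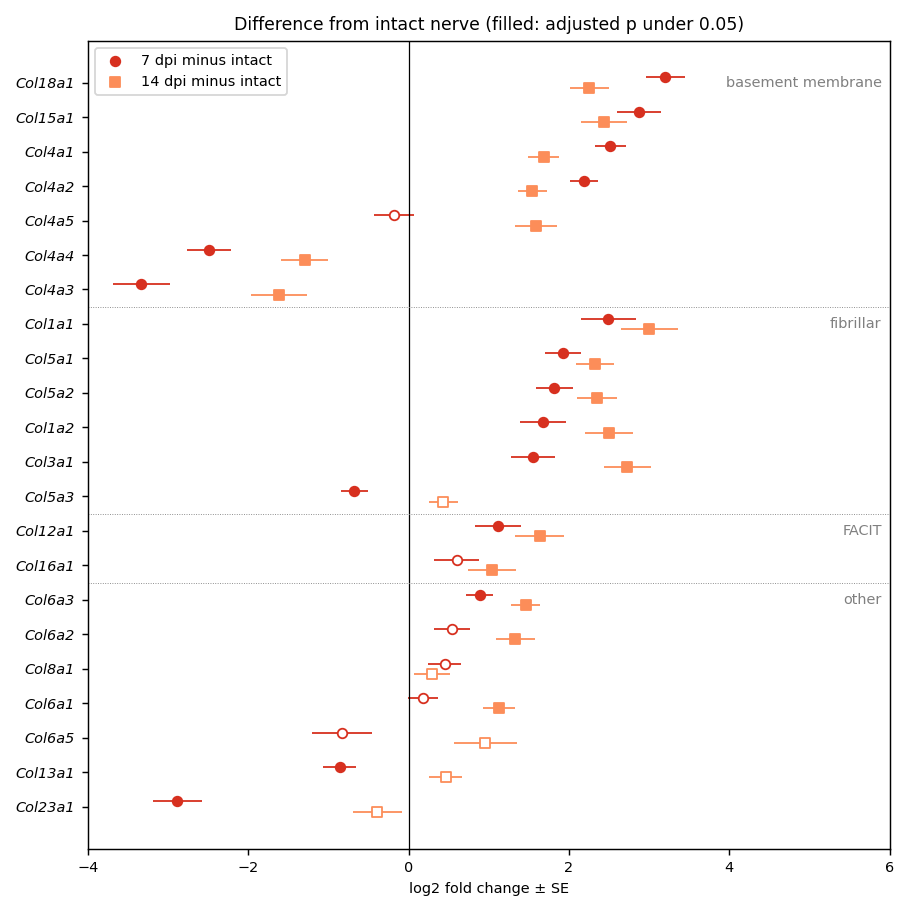
Log2 fold change from intact nerve (x axis) ± SE for the 22 collagens described by library, by class, at 7 dpi (circles) and 14 dpi (squares), with filled symbols at adjusted p under 0.05. Col18a1, Col15a1, Col4a1 and Col4a2 were further above intact at 7 than at 14 dpi, the 5 fibrillar chains of types I, III and V that rose were further above it at 14 dpi, and Col4a3 and Col4a4 lay to the left at both times.

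Among basement membrane collagens, 4 of 8 rose and 2 fell at 7 dpi (15.7% and 16.3% of all genes), and 5 rose and 2 fell at 14 dpi (6.86% and 5.09% of all genes). Col4a1, one of the chains of the common type IV network, read 638, 877, 744, 480.2 and 468 CPM in intact libraries, 4606, 3019, 5574, 2883 and 2348 at 7 dpi and 1717, 2678, 1869 and 1491 at 14 dpi. Its partner Col4a2 read 406, 580.1, 491, 394 and 389.8 CPM in intact, 2504, 1670, 2657, 1848 and 1639 at 7 dpi and 1005, 1504, 1430 and 1187 at 14 dpi. For both genes each injured library lay above each intact one, and the 14 dpi libraries were mostly below those at 7 dpi. Col4a1 rose 5.71-fold at 7 dpi (log2 fold change 2.51 ± 0.19 (SE), adjusted p = 6.21e-08; 2.46 in batch 1133 and 2.51 in batch 1292) and was 3.21-fold above intact at 14 dpi. Col4a2 rose 4.56-fold at 7 dpi (log2 2.19 ± 0.18 (SE), adjusted p = 1.13e-07; 2.15 in batch 1133 and 2.19 in batch 1292) and was 2.91-fold above intact at 14 dpi. From 7 to 14 dpi Col4a1 fell by 0.83 on the log2 scale (SE 0.20, adjusted p = 0.0129), with 1 library at 14 dpi inside the 7 dpi range, and Col4a2 fell by 0.65 (SE 0.18, adjusted p = 0.0345). Per length, the ratio of Col4a2 to Col4a1 was 0.741 ± 0.0979 (SD, n = 5) in intact and 0.597 ± 0.0893 (SD, n = 5) at 7 dpi. Over both batches these ranges overlapped, and the ratio lay between 0.489 and 0.854 in all 14 Tomato libraries. Within each batch the ranges did not overlap. In batch 1292 the ratio was 0.653 to 0.678 in intact and 0.489 to 0.567 at 7 dpi. In batch 1133 it was 0.841 and 0.854 in intact and 0.657 and 0.716 at 7 dpi.

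Type XVIII collagen, whose C-terminal fragment is endostatin, showed the largest rise among the described members at 7 dpi. Col18a1 read 182, 288, 248, 150.3 and 137 CPM in intact, 1906, 1328, 2388, 1938 and 1554 at 7 dpi and 617, 997, 1155 and 936 at 14 dpi. The 3 groups did not overlap. It rose 9.19-fold at 7 dpi (log2 3.20 ± 0.24 (SE), adjusted p = 5.86e-08; 3.59 in batch 1133 and 2.95 in batch 1292), was 4.77-fold above intact at 14 dpi, and fell by 0.94 on the log2 scale between the 2 times (SE 0.24, adjusted p = 0.0205). Col15a1, which encodes the related type XV chain, read 25.2, 47.1, 22.7, 12.6 and 8.36 CPM in intact, 212, 124, 286, 108 and 82.8 at 7 dpi and 111, 128, 92.8 and 80.5 at 14 dpi. Its injured libraries were above the intact ones, and those of 7 and 14 dpi overlapped. It rose 7.35-fold at 7 dpi (log2 2.88 ± 0.28 (SE), adjusted p = 6.63e-07; 3.14 in batch 1133 and 2.68 in batch 1292) and 5.43-fold at 14 dpi, and its difference between the 2 times did not pass the test (log2 -0.44, 95% interval -1.02 to 0.15, adjusted p = 0.41). The falls from 7 to 14 dpi are close to the threshold: leaving out 7 dpi replicate 4, 14 dpi replicate 1 or 14 dpi replicate 2 brought the members called lower from 3 to 1. In those fits 3.06%, 2.97% and 2.38% of all genes were called lower, against 4.20% in the full fit. With the mean of the fibroblast markers as a covariate none was called (0 higher and 0 lower, when 0.348% of all genes were called higher and 0.735% lower). The mean log2 level of the fibroblast markers did not overlap between 7 dpi (4.36 to 6.42) and 14 dpi (6.64 to 7.48), so that covariate and the time cannot be told apart there.

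Col4a3 and Col4a4 of the second type IV network fell at both times. Col4a3 read 57.2, 57.1, 76.9, 45.9 and 74.2 CPM in intact, 6.75, 11.5, 2.04, 5.93 and 5.03 at 7 dpi and 11.7, 29.4, 22.6 and 16.6 at 14 dpi. Col4a4, its neighbour in the genome and partner in the protein, read 75.4, 49.4, 72.6, 53.2 and 60.1 CPM in intact, 17, 17, 4.71, 10.1 and 7.3 at 7 dpi and 19.7, 29.7, 26.1 and 23.1 at 14 dpi. For both genes intact was highest, 7 dpi lowest and 14 dpi between them, and the 3 groups did not overlap. Col4a3 fell to 0.0995 times its intact level at 7 dpi (log2 -3.33 ± 0.35 (SE), adjusted p = 1.83e-06; -3.30 in batch 1133 and -3.40 in batch 1292) and was at 0.326 times that level at 14 dpi. Col4a4 fell to 0.178 times at 7 dpi (log2 -2.49 ± 0.28 (SE), adjusted p = 3.61e-06; -2.65 in batch 1133 and -2.48 in batch 1292) and was at 0.407 times at 14 dpi. From 7 to 14 dpi both rose, by 1.71 ± 0.35 (SE) for Col4a3 and 1.19 ± 0.29 (SE) for Col4a4 on the log2 scale (adjusted p = 0.00482 and 0.0133). The call of Col4a4 was lost without 7 dpi replicate 5 (adjusted p = 0.0523) or 14 dpi replicate 2 (adjusted p = 0.061).

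Col4a5, the X-linked chain of that network, took another course. It read 8.92, 13.1, 14.1, 4.89 and 5.76 CPM in intact, 11, 7.62, 7.5, 4.27 and 8.61 at 7 dpi and 25.1, 35, 27.8 and 14.4 at 14 dpi. The 14 dpi libraries stood above both other groups, which overlapped. Its difference at 7 dpi did not pass the test (log2 -0.18, 95% interval -0.71 to 0.34, adjusted p = 0.652), and it rose 3.01-fold at 14 dpi (log2 1.59 ± 0.26 (SE), adjusted p = 5.83e-04; 1.82 in batch 1133 and 1.29 in batch 1292). Col4a6, which lies head to head with Col4a5, averaged under 1 CPM in every group (0.705 CPM in intact) and was called in no comparison.

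Perineurial markers (6 genes, among them Cldn1 and Itgb4), which mark the cell layers around nerve fascicles, followed the same order of groups as Col4a3 and Col4a4. They summed to 2350 to 4992 CPM in intact, 358 to 987 at 7 dpi and 1230 to 2857 at 14 dpi, and 6 of 6 fell at 7 dpi. With the mean of these markers as a covariate, chosen after seeing the data, Col4a3 at 7 dpi moved from -3.33 to -1.49 (adjusted p = 0.187). Col4a4 moved from -2.49 to -0.59 (adjusted p = 0.411), while Col4a1 stood at 2.15 (adjusted p = 0.00989) and Col18a1 at 3.03 (adjusted p = 0.00493). Among the described members, Col3a1, Col5a3, Col6a3, Col12a1, Col13a1, Col15a1 and Col23a1 lost their calls too (adjusted p = 0.0565 to 0.931). In that fit 12 collagens rose and 0 fell. Of all genes, 2.5% were called higher and 1.29% lower, against 15.7% and 16.3% without the covariate. The markers' mean log2 level did not overlap between intact (7.89 to 9.17) and 7 dpi (4.91 to 6.73), so this covariate and the injury cannot be told apart in that comparison. The part of perineurial cells in these results was not tested.

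**Figure D2:**
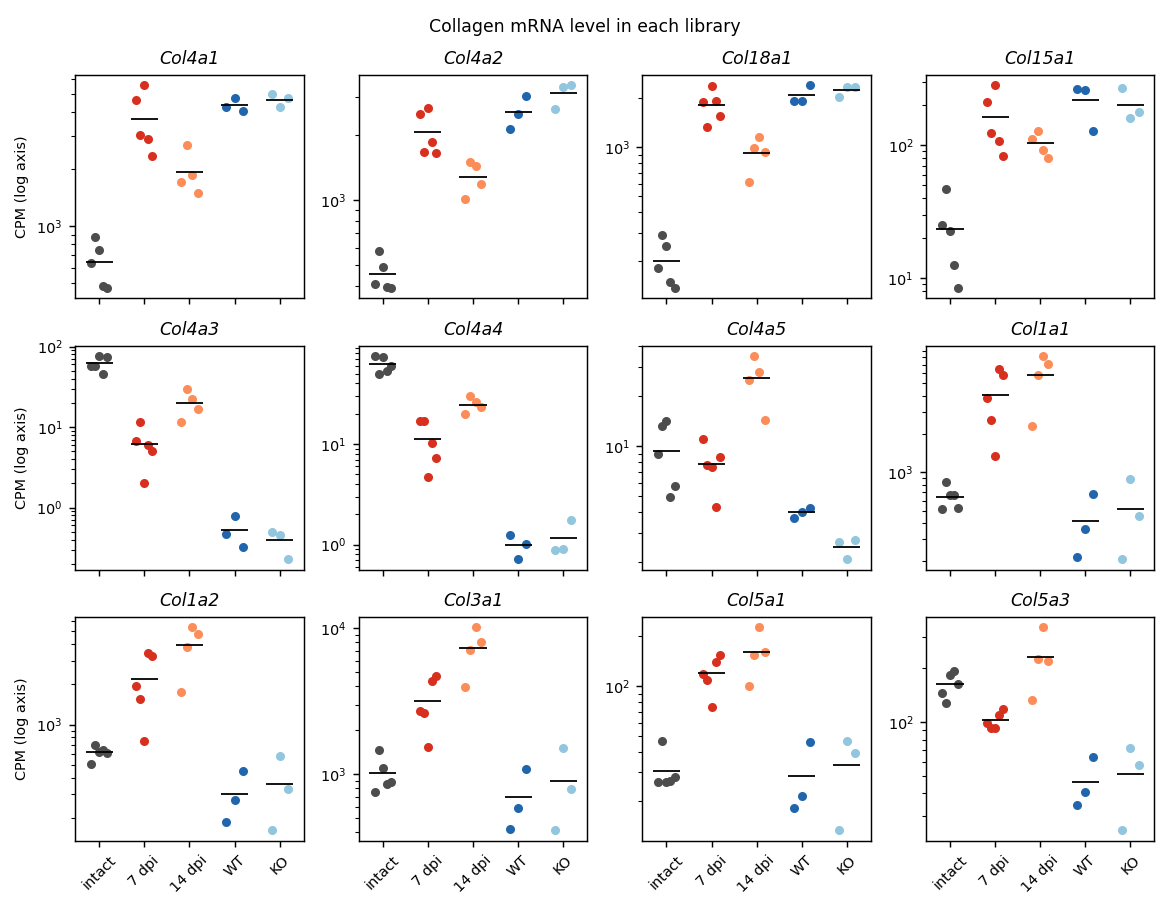
CPM (log axis, a separate scale for each gene) of 12 collagens in each library of the 5 groups, with a black line at the group mean. Col4a1, Col4a2, Col18a1 and Col15a1 overlap between Cherry WT and Tomato at 7 dpi, the fibrillar genes shown are lower in WT, and Col4a3 and Col4a4 are highest in intact Tomato libraries.

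Of the 11 fibrillar genes, 7 rose and 1 fell at 7 dpi (15.7% and 16.3% of all genes), and 7 rose and 0 fell at 14 dpi (6.86% and 5.09% of all genes). Col1a1, the main chain of type I collagen, read 518, 845, 665, 662 and 526 CPM in intact, 3842, 2603, 1352, 6545 and 5873 at 7 dpi and 2319, 5862, 8259 and 7050 at 14 dpi. Each injured library was above the intact ones, 7 dpi replicate 3 was the lowest at that time, and replicates 4 and 5, of batch 1133, were the highest. Col1a1 rose 5.62-fold at 7 dpi (log2 2.49 ± 0.34 (SE), adjusted p = 2.68e-05; 3.39 in batch 1133 and 1.84 in batch 1292) and 8.02-fold at 14 dpi (log2 3.0 ± 0.36 (SE), adjusted p = 3.05e-05). Col1a2, the other type I chain, read 509, 699.6, 628, 644 and 615 CPM in intact, 1952, 1549, 758, 3431 and 3264 at 7 dpi and 1767, 3812, 5394 and 4758 at 14 dpi. It showed the same order of libraries at 7 dpi, with replicate 3 lowest. Col1a2 rose 3.2-fold at 7 dpi (log2 1.68 ± 0.28 (SE), adjusted p = 2.02e-04; 2.41 in batch 1133 and 1.12 in batch 1292) and 5.64-fold at 14 dpi. Per length, the ratio of Col1a2 to Col1a1 was 1.09 ± 0.136 (SD, n = 5) in intact, 0.609 ± 0.0377 (SD, n = 5) at 7 dpi and 0.76 ± 0.0582 (SD, n = 4) at 14 dpi, and these 3 ranges did not overlap.

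Col3a1 rose in each of the 3 comparisons. It read 755, 1459, 1112, 859.7 and 879 CPM in intact, 2716, 2611, 1542, 4344 and 4725 at 7 dpi and 3991, 7082, 10240 and 8046 at 14 dpi. Each injured library was above the intact ones, and 1 library at 14 dpi lay inside the range of 7 dpi. Col3a1 rose 2.93-fold at 7 dpi (log2 1.55 ± 0.28 (SE), adjusted p = 3.50e-04; 2.38 in batch 1133 and 1.05 in batch 1292) and 6.63-fold at 14 dpi (log2 2.73 ± 0.30 (SE)), and from 7 to 14 dpi it rose 2.26-fold (log2 1.18 ± 0.28 (SE), adjusted p = 0.0136). That last call was lost without 14 dpi replicate 2 (log2 1.08, adjusted p = 0.0547). Over the same interval Col1a1 and Col1a2 did not pass the test (log2 0.51, 95% interval -0.20 to 1.22, adjusted p = 0.433, and log2 0.82, 95% interval 0.21 to 1.43, adjusted p = 0.0876). Per length, the ratio of Col3a1 to Col1a1 was 1.67 ± 0.193 (SD, n = 5) in intact, 0.921 ± 0.216 (SD, n = 5) at 7 dpi and 1.41 ± 0.283 (SD, n = 4) at 14 dpi.

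Type V collagen, which sits inside type I fibres and limits their width, divided by chain. Col5a1 read 26.2, 46.6, 26.1, 26.6 and 28.1 CPM in intact, 118, 109, 74.9, 139.8 and 155 at 7 dpi and 101, 155, 229 and 160.3 at 14 dpi. Col5a2, which lies 24614 bases from Col3a1 on chromosome 1, read 81.2, 125, 121, 82.1 and 94.2 CPM in intact, 305, 296, 225, 518 and 542 at 7 dpi and 329, 545, 767 and 562 at 14 dpi. For both, intact libraries were below the injured ones, and 7 and 14 dpi overlapped. Col5a1 rose 3.79-fold at 7 dpi (log2 1.92 ± 0.23 (SE), adjusted p = 5.92e-06; 2.41 in batch 1133 and 1.62 in batch 1292) and 5-fold at 14 dpi, and Col5a2 3.53-fold (log2 1.82 ± 0.24 (SE), adjusted p = 1.58e-05) and 5.09-fold. Col5a3, the third type V chain, read 147, 128, 185, 195 and 164 CPM in intact, 99.3, 92.6, 93.4, 109.5 and 118 at 7 dpi and 132, 227, 342 and 220.2 at 14 dpi. Its 7 dpi libraries were below the other 2 groups. Col5a3 fell by 0.68 on the log2 scale at 7 dpi (SE 0.17, adjusted p = 0.00514; -0.65 in batch 1133 and -0.67 in batch 1292) and rose 2.16-fold from 7 to 14 dpi (log2 1.11 ± 0.18 (SE), adjusted p = 8.99e-04), and at 14 dpi its difference from intact did not pass the test (log2 0.43, 95% interval 0.05 to 0.81, adjusted p = 0.143).

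Fibroblast markers changed in both directions at 7 dpi, where 3 of the 12 rose and 4 fell: Lum rose 5.07-fold while Dcn fell to 0.355 times its intact level (log2 -1.49 ± 0.33 (SE), adjusted p = 0.00216). Dcn read 8445, 5917, 10810, 14350 and 8906 CPM in intact and 3544, 3696, 703, 4589 and 5269 at 7 dpi. The library with the lowest Dcn, 7 dpi replicate 3, was also lowest in Col1a1, Col1a2 and Col3a1 at that time and highest in Col4a1, Col4a2, Col15a1 and Col18a1. With the mean of the fibroblast markers as a covariate, 20 collagens rose and 6 fell at 7 dpi, when 15.5% of all genes were called higher and 15.5% lower. The log2 fold change of Col1a1 was 2.77 (adjusted p = 2.54e-07) with that covariate against 2.49 without it. The mean log2 level of the markers overlapped between intact (5.93 to 6.36) and 7 dpi (4.36 to 6.42), where single markers went both ways. That mean therefore cannot stand for fibroblast RNA at 7 dpi, and the part of such RNA in these changes was not tested. At 14 dpi the same covariate left 17 collagens called higher and 2 lower relative to intact, when 3.07% of all genes were called higher and 3.75% lower. It took the log2 fold change of Col1a1 to 2.08, of Col1a2 to 1.67 and of Col3a1 to 2.03, all still called, and Col12a1 (adjusted p = 0.0737), Col16a1 (adjusted p = 0.781) and Col6a2 (adjusted p = 0.0507) were no longer called. The mean log2 level of the markers did not overlap between intact (5.93 to 6.36) and 14 dpi (6.64 to 7.48), so there the covariate and the injury cannot be told apart.

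**Figure D3:**
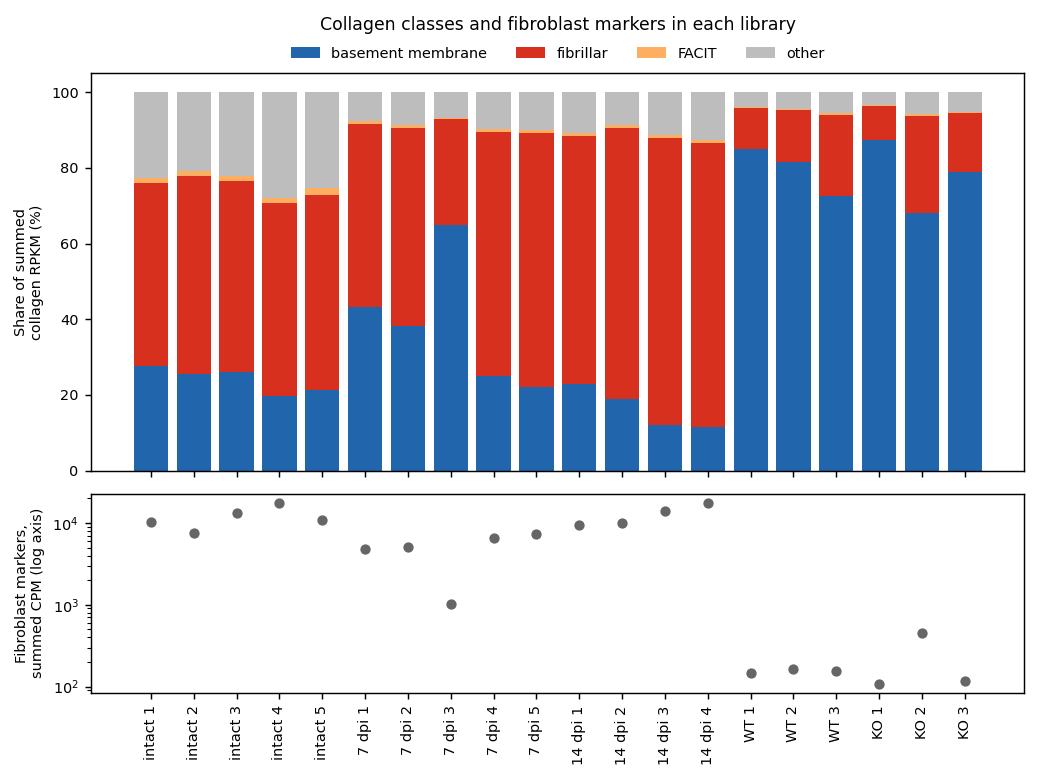
Upper panel: share of each class in the summed RPKM of the collagen genes (%) in each of the 20 libraries. Lower panel: summed CPM of the 12 fibroblast markers (log axis), most of which is Dcn in the Tomato libraries. Basement membrane genes hold 72.5% to 84.9% in WT and 11.6% to 22.9% at 14 dpi, and 7 dpi replicate 3, the lowest of that group in fibroblast markers, holds 65.0%.

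Summed per length over the collagen genes, the fibrillar class held 48.3% to 52.3% in intact, 27.8% to 66.95% at 7 dpi and 65.6% to 75.95% at 14 dpi. Basement membrane genes held 19.8% to 27.7% in intact, 22.2% to 65.0% at 7 dpi and 11.6% to 22.9% at 14 dpi. The 7 dpi libraries of batch 1133 held 25.1% and 22.2%, and those of batch 1292 43.1%, 38.3% and 65.0%.

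FACIT collagens attach to fibre surfaces, and 2 of the 8 tested rose at 7 dpi (15.7% of all genes did) and 3 at 14 dpi (6.86% of all genes did). The count at 7 dpi is near the share of all genes and is not a result about the class. Col12a1, a FACIT chain of dense connective tissue, read 17.5, 20.1, 20.8, 7.72 and 23.1 CPM in intact, 42.8, 37.3, 25.5, 37.4 and 50.5 at 7 dpi and 27.3, 74.9, 62 and 59.9 at 14 dpi. Injured libraries were above intact ones at both times. It rose 2.16-fold at 7 dpi (log2 1.11 ± 0.29 (SE), adjusted p = 0.00661; 1.66 in batch 1133 and 0.81 in batch 1292) and 3.11-fold at 14 dpi. Col16a1 read 38, 45.9, 47.5, 44.4 and 47.5 CPM in intact, 60.8, 49.9, 27, 126 and 124 at 7 dpi and 39.7, 100.1, 143 and 144 at 14 dpi. Replicates 4 and 5 at 7 dpi and 2, 3 and 4 at 14 dpi were high, and replicate 3 at 7 dpi and 1 at 14 dpi lay below the highest intact value. It rose 2.05-fold at 14 dpi (log2 1.04 ± 0.30 (SE), adjusted p = 0.0296; 1.64 in batch 1133 and 0.53 in batch 1292), a call that was lost when any 1 of 6 libraries was left out (intact replicates 1, 4 and 5 and 14 dpi replicates 2, 3 and 4, adjusted p = 0.0515 to 0.192).

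Type VI collagen rose mainly at the later time. Col6a1 read 269, 419.8, 349.8, 473 and 385 CPM in intact, 364, 328, 289, 683 and 634 at 7 dpi and 449, 718, 1372 and 1285 at 14 dpi. Col6a2 read 165, 289.7, 186, 309 and 203 CPM in intact, 278, 219.9, 204, 639 and 552 at 7 dpi and 342, 485, 1054 and 865 at 14 dpi. In both genes the 7 dpi libraries overlapped intact, with replicates 4 and 5 above it. Neither passed the test at 7 dpi (log2 0.18 and 0.54, adjusted p = 0.539 and 0.0816). At 14 dpi Col6a1 rose 2.19-fold (log2 1.13 ± 0.20 (SE), adjusted p = 0.00112) and Col6a2 2.52-fold (log2 1.33 ± 0.24 (SE), adjusted p = 0.00138). Col6a3, the longest of the 3 main chains, read 99.1, 123, 98.2, 107 and 81.3 CPM in intact, 168, 160.5, 196, 215 and 209 at 7 dpi and 192, 301, 387 and 263 at 14 dpi. Its intact libraries were below all injured ones, and it rose 1.85-fold at 7 dpi (log2 0.89 ± 0.17 (SE), adjusted p = 5.46e-04) and 2.75-fold at 14 dpi. From 7 to 14 dpi the 3 chains rose 1.94-fold, 1.73-fold and 1.49-fold (adjusted p = 0.00563, 0.0457 and 0.049). Within batches the difference was 1.01 in batch 1133 and 0.80 in batch 1292 for Col6a1, 0.68 in batch 1133 and 0.81 in batch 1292 for Col6a2 and 0.59 in batch 1133 and 0.47 in batch 1292 for Col6a3, and the calls of Col6a2 and Col6a3 were each lost in 7 of the 9 fits that left out 1 library of the 2 groups.

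Col6a5, an alternative type VI chain, read 78.4, 66.5, 126.6, 55.8 and 42.8 CPM in intact, 69.9, 36.5, 11.8, 45.5 and 40.5 at 7 dpi and 78.2, 176, 118 and 183 at 14 dpi. Intact overlapped both injured groups, and each 14 dpi library was above each 7 dpi one. Its 1 call was between the injured groups, where it rose 3.46-fold (log2 1.79 ± 0.39 (SE), adjusted p = 0.00801). Col8a1, a network-forming chain made by vascular cells, read 226, 246, 298, 224 and 232 CPM in intact, 369.6, 333, 179.5, 394 and 441 at 7 dpi and 192, 294, 395 and 389.5 at 14 dpi. These groups overlapped, and the gene was called in no comparison (log2 0.45, 95% interval 0.01 to 0.88, adjusted p = 0.112 at 7 dpi).

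The transmembrane collagens Col13a1 and Col23a1 were low at 7 dpi. Col13a1 read 13.2, 22.4, 14.3, 10.2 and 11.3 CPM in intact, 12.2, 6.39, 6.91, 6.84 and 6.54 at 7 dpi and 22.1, 18.6, 15.3 and 19.3 at 14 dpi. Of its 7 dpi libraries, replicate 1 reached into the intact range and the other 4 were below it. Col13a1 fell by 0.86 on the log2 scale at 7 dpi (SE 0.20, adjusted p = 0.00332; -0.65 in batch 1133 and -0.95 in batch 1292) and rose 2.5-fold from 7 to 14 dpi (adjusted p = 8.80e-04). Col23a1 read 12.2, 10.9, 12.2, 14.8 and 12.2 CPM in intact, 2.66, 1.57, 1.12, 0.87 and 2.18 at 7 dpi and 4.83, 10.2, 13.9 and 10 at 14 dpi. All 5 libraries at 7 dpi were below the other 9. Col23a1 fell to 0.136 times its intact level (log2 -2.88 ± 0.31 (SE), adjusted p = 2.30e-06; -2.86 in batch 1133 and -2.48 in batch 1292) and rose 5.63-fold from 7 to 14 dpi (log2 2.49 ± 0.32 (SE), adjusted p = 1.47e-04).

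The other 22 members were lower, with group means of 0.131 to 32.3 CPM, and 14 of them stayed under 5 CPM in every group. Of these 22, 6 were called at 7 dpi and 6 at 14 dpi, the same 6 genes. Of all genes, 15.7% were called higher and 16.3% lower at 7 dpi, and 6.86% and 5.09% at 14 dpi. The count at 7 dpi is therefore not a result about these members. Col26a1 read 0.11, 1.91, 0.724, 0.578 and 2.17 CPM in intact, 10.1, 10.3, 2.21, 14.8 and 21.3 at 7 dpi and 10.9, 7.1, 24.9 and 31.5 at 14 dpi. It rose 10.3-fold at 7 dpi (log2 3.37 ± 0.54 (SE), adjusted p = 1.27e-04) and 14.3-fold at 14 dpi. Col28a1, known from the basement membranes around Schwann cells, read 1.54, 5.01, 4.08, 2.18 and 2.6 CPM in intact, 33.2, 21.8, 31.4, 25.8 and 31.3 at 7 dpi and 22.3, 20.6, 42.4 and 26.6 at 14 dpi. The injured libraries of both genes were above the intact ones. Col28a1 rose 9.39-fold at 7 dpi (log2 3.23 ± 0.30 (SE), adjusted p = 4.23e-07) and 9.1-fold at 14 dpi. Schwann cell markers (8 genes) summed to 230.5 to 541.8 CPM in intact, 41.6 to 117.3 at 7 dpi and 338 to 1596 at 14 dpi, lowest where Col28a1 was already high. Col14a1, a FACIT chain, read 2.97, 6.76, 4.72, 1.02 and 2.6 CPM in intact, 31.8, 28.8, 16, 34.5 and 42.9 at 7 dpi and 21.8, 44.2, 34 and 29.2 at 14 dpi, and rose 8.93-fold at 7 dpi and 9.35-fold at 14 dpi. Col17a1, a transmembrane chain known from skin hemidesmosomes, was the 1 of these members that fell (named after its values were seen), to 0.307 times its intact level at 7 dpi and 0.43 times at 14 dpi. Col11a1 and Col27a1, both fibrillar, were the other 2 of the 6 and rose at both times.

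The Cherry libraries, sorted by another endothelial reporter from the same lesion time and holding 145 to 162 CPM of fibroblast markers in WT, were close to the Tomato libraries in 4 basement membrane collagens and lower in the 6 fibrillar ones described by library. The experiments differ in reporter and were scaled separately, so levels are set side by side without a test. Col4a1 read 4242, 4751 and 4070 CPM in WT and Col4a2 2120, 2486 and 3027. Col18a1 read 1917, 1933 and 2422 CPM and Col15a1 268, 262 and 128. Each of these genes overlapped its Tomato 7 dpi range, and the ratio of WT to Tomato 7 dpi means was 1.18 for Col4a1, 1.23 for Col4a2, 1.15 for Col18a1 and 1.35 for Col15a1. The fibroblast marker Dcn, at 60.4, 67 and 59.5 CPM, was at 0.0175 times its Tomato 7 dpi mean, and Lum at 0.0569 times. Of the 12 fibroblast markers, 10 were below the Tomato 7 dpi range and 2 overlapped it, Dpt (1.57 times) and Clec3b (0.305 times). Mural cell markers summed to 1224 to 1317 CPM in WT, and their median log2 ratio to Tomato 7 dpi was -0.22, with 8 of 10 overlapping and 2 lower. All 8 Schwann cell markers overlapped, with a median of 1.03. Which of these cells held the RNA of the 4 collagens was not tested.

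The 6 fibrillar genes described were lower in each WT library than in each Tomato 7 dpi library. Of the other 5 fibrillar genes, Col11a2 and Col27a1 overlapped the Tomato range and 3 were below it. Col1a1 read 217, 357 and 672 CPM in WT (0.103 times the Tomato 7 dpi mean), Col1a2 185, 272 and 449.5 (0.138 times) and Col3a1 422, 589 and 1081 (0.219 times). Col5a1 was at 0.239 times, Col5a2 at 0.304 times and Col5a3 at 0.452 times. In log2 terms the median of the 6 was -2.13, against -3.69 for the 12 fibroblast markers and 0.38 for the 10 endothelial markers. WT replicate 3, of batch 1133, held the most of each of the 3 main chains, and replicates 1 and 2 are of batch 1292. Fibroblast markers summed to 153.7 CPM in replicate 3, between those of replicates 1 and 2. The part of batch or of fibroblast RNA in this difference was not tested.

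Col4a3 and Col4a4 were under 2 CPM in the Cherry WT cells. Col4a3 read 0.467, 0.788 and 0.327 CPM in WT (0.0845 times Tomato 7 dpi) and Col4a4 1.25, 0.713 and 1.02 (0.0885 times). Perineurial Cldn1 was at 1.36, 0.938 and 2.62 CPM in the same libraries, and the median log2 ratio of the 6 perineurial markers was -6.35, with 5 lower and 1, Moxd1 (1.97 times), higher than in Tomato at 7 dpi. Col4a5 was lower too, at 3.7, 4.02 and 4.25 CPM (0.511 times). Type VI chains lay at 0.288 to 0.354 times, Col8a1 at 0.231, Col12a1 at 0.249 and Col16a1 at 0.195 times their Tomato 7 dpi means, with no overlap. Col6a5 had the widest gap, at 0, 0.0375 and 0.654 CPM or 0.00564 times. Col13a1 was the 1 described collagen above the Tomato range, at 12.3, 13 and 28.8 CPM (2.32 times), and Col23a1 overlapped it. In all, 16 of the 22 described members were below the Tomato 7 dpi range, 5 overlapped it and 1 was above.

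**Figure D4:**
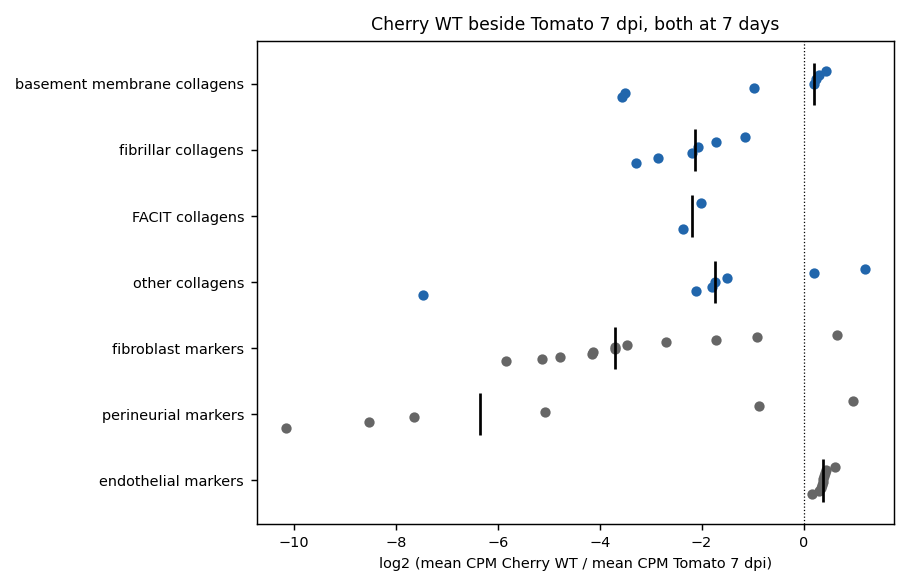
Log2 ratio of mean CPM in Cherry WT to mean CPM in Tomato 7 dpi, for the described collagens of each class (blue) and for 3 marker lists (grey), 1 point a gene, with a black line at the median. The 4 basement membrane genes near 0 are Col4a1, Col4a2, Col15a1 and Col18a1. The median of the endothelial markers (0.38) is also near 0, as is that of the mural markers (-0.22), which are not drawn. The median of the fibrillar genes (-2.13) lies between those of the endothelial and fibroblast (-3.69) markers.

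Deletion of Plxnd1, which encodes the semaphorin receptor Plexin-D1, was checked in the Cherry cells first. Plxnd1 read 349.8, 324 and 344 CPM in WT and 131.4, 160.5 and 160.1 in KO, lower in each KO library (log2 -1.23 ± 0.10 (SE), adjusted p = 1.29e-04). Which exons are removed is not given in the sources used here, so remaining reads do not measure remaining function.

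No collagen differed between KO and WT by edgeR's test: 0 of the 37 tested rose (0.129% of all genes did) and 0 fell (0.179% of all genes did), 3 had an unadjusted p under 0.05, and DESeq2 also called 0. The median log2 fold change of the collagens was -0.12 against -0.01 for all genes. Those 3 were Col13a1, Col17a1 and Col5a2, named after their values were seen. Col4a1 read 4950, 4245 and 4717 CPM in KO and Col4a2 2641, 3312 and 3407. Col18a1 read 2033, 2335 and 2352 CPM and Col15a1 270.2, 161 and 177. Each of the 4 overlapped its WT values, and the 95% intervals of the log2 difference were -0.07 to 0.35 for Col4a1, -0.04 to 0.39 for Col4a2, -0.18 to 0.21 for Col18a1 and -0.03 to 0.45 for Col15a1. The intervals of the main fibrillar genes were wider, and with no batch term the signs of Col1a1, Col1a2 and Col3a1 turned from negative to positive without being called. Col1a1 read 208, 893 and 453 CPM in KO, and the interval of its log2 difference was -1.28 to 0.82. Col1a2 read 162, 586 and 331 CPM, with an interval of -1.02 to 0.56, and Col3a1 read 414, 1503 and 797 CPM, with an interval of -0.88 to 0.68. In KO, replicates 2 and 3, of batch 1133, were above replicate 1, of batch 1292, for Col1a1, Col1a2 and Col3a1. Replicate 2 was the highest, and it also held 451 CPM of fibroblast markers against 109 and 117 in the other 2 KO libraries. The part of these markers in the spread was not tested.

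Col4a5 was the 1 tested collagen whose KO and WT libraries did not overlap, where 11.8% of all genes tested were apart in this way. It read 3.7, 4.02 and 4.25 CPM in WT and 2.63, 2.07 and 2.69 in KO, lower in each KO library, and the difference did not pass the test (log2 -0.70 ± 0.33 (SE), adjusted p = 0.443; -0.73 in batch 1133 and -0.48 in batch 1292). Of the 3 genes of the perineurial list tested in the Cherry libraries, Moxd1 fell, from 207, 168 and 131.4 CPM in WT to 52.8, 49.5 and 50.3 in KO, and Cldn1 and Itgb4 overlapped between the groups (Moxd1 named after its values were seen). Mean levels in WT were 168.6 CPM for Moxd1, 95.5 for Itgb4, 1.64 for Cldn1, 0.509 for Ntng1, 0.121 for Msln and 0.0668 for Lypd2. The fall of Moxd1 is thus not a result about the list, and its cell source here was not tested. Col13a1 had the smallest adjusted p among the collagens. It read 12.3, 13 and 28.8 CPM in WT and 9.87, 13.2 and 12.9 in KO, overlapping groups in which WT replicate 3 was the highest (log2 -0.77 ± 0.20 (SE), adjusted p = 0.176; -1.12 in batch 1133 and -0.34 in batch 1292). Without that library its log2 difference was -0.36 (adjusted p = 0.692).

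Genes of collagen synthesis other than the chains themselves mostly rose at 7 dpi. Of 37 genes for hydroxylation, folding, export, cleavage and cross-linking of collagen chains, 23 rose (15.7% of all genes did) and 2 fell (16.3% of all genes did), with a median log2 fold change of 0.73 against -0.10 for all genes. Loxl1, a cross-linking enzyme, read 7.52, 15.1, 6.02, 9.18 and 6.55 CPM in intact and 49.5, 67.3, 23.7, 97.4 and 103 at 7 dpi, and rose 7.07-fold (log2 2.82 ± 0.35 (SE), adjusted p = 1.09e-05). Fkbp10, a folding enzyme of the endoplasmic reticulum, read 61.9, 109, 64.9, 83.2 and 62.2 CPM in intact and 358, 346, 379, 486 and 445 at 7 dpi, and rose 5.21-fold (log2 2.38 ± 0.19 (SE)). Pxdn, the peroxidase that cross-links type IV collagen, read 141, 221, 146, 62.5 and 63.1 CPM in intact, 699, 547, 952, 323 and 314 at 7 dpi and 819.6, 725 and 792 in WT. The 7 dpi libraries of the 3 genes were above their intact ones. Pxdn rose 4.59-fold at 7 dpi (log2 2.20 ± 0.20 (SE), adjusted p = 4.20e-07), and Tll1, a protease that trims propeptides, 4.29-fold. Those that fell were Colgalt2 (log2 -0.78 ± 0.14 (SE)), which adds galactose, and P4ha1 (log2 -0.57 ± 0.13 (SE)), a prolyl hydroxylase subunit.

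At 14 dpi 21 of the 37 rose relative to intact (6.86% of all genes did) and 1, P4ha2 (log2 -0.71), fell (5.09% of all genes did). Loxl1 was 7.57-fold, Tll1 4.37-fold, Pxdn 3.35-fold and Adamts3, a propeptide protease, 3.07-fold above intact. From 7 to 14 dpi 1 rose, Colgalt2 (log2 0.56), and 2 fell, Fkbp10 (log2 -0.93) and P4ha2 (log2 -0.57), shares near or below those of all genes (5.73% higher and 4.20% lower). Between KO and WT 0 of 36 tested were called by edgeR, with 5 at an unadjusted p under 0.05. Among 10 collagen receptors, 2 of the 9 tested rose at 7 dpi and 3 fell, few genes beside the shares of 15.7% and 16.3% over all genes, so the counts are not a result about receptors. The integrin chains Itga2 (log2 2.41 ± 0.25 (SE)) and Itgb1 (log2 0.94 ± 0.14 (SE)) rose, and Ddr1 (log2 -1.56 ± 0.23 (SE)), Ddr2 (log2 -1.07 ± 0.17 (SE)) and Itga1 (log2 -0.64 ± 0.13 (SE)) fell. Ddr1 and Ddr2 are receptor kinases that bind collagen, and Itga1 and Itga2 each pair with Itgb1.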

How the data were processed

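PolyA RNA of 20 libraries (14 Tomato, 6 Cherry) had been sequenced. The deposited values are raw read counts per gene, in 1 table per experiment, with exon lengths in bases. The submitters' processing notes name Trimmomatic 0.39, STAR 2.5.3a, featureCounts 1.6.4, Cell Ranger 3.0.2 and mm10 or GRCm38, and no source used here states the strand setting. Genes were kept by filterByExpr (minimum count 10), scaled by TMM and tested with edgeR 4.0.16's quasi-likelihood F test (robust), with batch 1133 or 1292 as a covariate: 20409 genes in 1 fit of the Tomato libraries and 16227 in a fit of the Cherry libraries. Adjusted p-values are Benjamini-Hochberg over all of them. The fit was tested on simulated data. A second deposited count table, corrected by the authors with ComBat-Seq, and DESeq2 1.42.0 served as alternatives. The members and lists were chosen with earlier results of these data known.

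Collagens with a mean of at least 50 CPM in 1 or more groups, and those called between 7 and 14 dpi or between KO and WT, are given by library. Of the others, those with the greatest fold changes are named, up to 2 per comparison. Processing genes are named for the 4 greatest changes each way. Same-group libraries were compared in 32 pairs, and none agreed within sampling noise (chi-square per degree of freedom 15.4 to 121). Samples were grouped by the labels' genotype, reporter and condition.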

Additional observations from a re-analysis of the deposited data

Results flagged for a closer look

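Of 66 groups checked for 22 collagens, 3 held 1 library that stood apart from the rest of its group by Dixon's criterion, which chance alone meets in about 1 group in 20. Col12a1 was low in intact replicate 4, at 7.72 CPM. Col13a1 was high in 7 dpi replicate 1, at 12.2 CPM, and Col5a1 was high in intact replicate 2, at 46.6 CPM.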

How the results depend on the processing

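From 7 to 14 dpi, 3 collagens were called lower, where 4.20% of all genes were. This became 1 with no batch term (2.59% of all genes), 0 in batch 1133 alone (0.423%) and 1 in batch 1292 alone (2.42%). With a covariate it became 0 for the fibroblast marker mean (0.735%), 1 for the Y-linked gene mean (2.65%) and 0 for the perineurial marker mean (0.475%). The 11 called higher (5.73% of all genes) became 5 in batch 1133 alone (1.09%) and 3 in batch 1292 alone (1.26%). They became 0 with the fibroblast covariate (0.348%) and 0 with the perineurial one (0.269%). The calls over all genes thus fell in the same fits. Both marker means separate 7 from 14 dpi. At 14 dpi against intact the 3 called lower (5.09% of all genes) became 0 in batch 1292 alone (3.97%) and 1 with the perineurial covariate (2.05%). At 7 dpi the 6 called lower (16.3% of all genes) became 0 with the perineurial covariate, when 1.29% of all genes were called lower. That covariate also turned Col6a5 at 7 dpi from -0.83 (not called) to 1.98 (log2, adjusted p = 0.0466); the cause was not tested. The Y-linked and perineurial covariates were chosen after seeing the data.

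Between KO and WT 1 collagen, Col13a1, was called lower with no filter on low counts (log2 -0.79, adjusted p = 0.0217), where 0.333% of all genes were. It was also called lower in the authors' ComBat-Seq table (-0.83, adjusted p = 0.0368), where 1.52% of all genes were. In batch 1133 alone, where WT has only replicate 3, its log2 difference was -1.14. Its adjusted p ranged from 0.0217 to 0.926 over the settings.

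Leaving out 1 library gave 16 to 19 collagens higher and 6 to 7 lower at 7 dpi, 19 to 22 higher and 2 to 3 lower at 14 dpi, 7 to 12 higher and 1 to 3 lower from 7 to 14 dpi, and 0 between KO and WT. In those fits 13.5% to 16.5% of all genes were higher and 14.7% to 18.6% lower at 7 dpi. At 14 dpi 4.61% to 7.27% were higher and 3.08% to 6.4% lower, and from 7 to 14 dpi 3.45% to 5.45% and 2.38% to 4.37%. The 7 called higher from 7 to 14 dpi came without 14 dpi replicate 2. Without 7 dpi replicate 4, 14 dpi replicate 1 or 14 dpi replicate 2, 1 was lower; Col4a2 lost its call from 7 to 14 dpi in 6 such fits and Col18a1 in 3. Over 1649 gene values under another setting, 1445 kept direction and side of the threshold, 116 lost the call, 24 gained it, 63 changed sign without being called, and 1, Col6a5 above, was called with the opposite sign. No paired analysis was possible because the labels give no replicate numbers that groups share. Depth limits Col4a3, Col4a4 and Col6a5 in the Cherry libraries, whose levels near 1 CPM or lower rest on few counts.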
